A study of Rattus norvegicus with 6 samples.

Results

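The 9 genes described here encode proteins that pair, hold and recombine homologous chromosomes in meiosis. They are Sycp1, Sycp2 and Sycp3 of the synaptonemal complex, Rec8, Stag3 and Smc1b of meiotic cohesin, and Spo11, Dmc1 and Msh5 of recombination. The list was set with earlier results of these data known, and its members were taken by symbol: each probe set of the array annotated with exactly 1 of these symbols was taken. Each of the 9 symbols had 1 such probe set, so all 9 listed genes were measured, of 14324 genes that probe sets of the array name alone.

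Whole ovaries of female Sprague-Dawley rats, taken on the day of birth (P0), were cultured for 24 h without treatment (3 control samples) or with human connective tissue growth factor (CTGF) at 500 ng/ml (3 CTGF samples). Each sample pooled 2 to 3 ovaries of different pups of a litter from the same well. The control and the CTGF sample of 1 replicate number were taken as 1 of 3 organ culture dates, called batches here. RNA of each sample was measured on a whole-transcript expression array, and the deposited values are log2 signals of 27342 probe sets. The comparison asks which transcripts differ after 24 h with CTGF, a secreted matricellular protein that the study tested in the assembly of primordial follicles.

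In the female, germ cells enter meiosis in the fetal ovary and arrest at the end of prophase around birth, when the nests of oocytes break down and primordial follicles form. During prophase, cohesin organizes each chromosome into loops on an axis, Spo11 cuts the DNA, Dmc1 leads the broken end to the homologous chromosome, and the synaptonemal complex zips the homologs together until crossovers are made. The complex is taken apart as oocytes reach the arrest, so the P0 ovary holds oocytes near the end of this program.

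Of the 9 genes, 7 had a signal above background, as did 54.4% of all probe sets. The mean difference between CTGF and control arrays passed the test for none of the 9 (0 of 9). The signs of the difference between the CTGF and the control array depended on the batch. Sycp1, Sycp2, Sycp3, Stag3, Smc1b and Spo11 were all higher in the CTGF array in batches 1 and 3 and lower in batch 2. The median difference over the 9 genes was 0.19, -0.32 and 0.25 on the log2 scale in batches 1, 2 and 3, against 0, -0.01 and 0 over all probe sets.

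A property of the deposited values bears on every sentence that follows. If the 2 arrays of a batch are averaged, every probe set has the same average in batches 1, 2 and 3, to within 0.005 on the log2 scale. Differences between batches had thus been removed, so a control array that is high for a gene always stands beside a low CTGF array of the same batch. The value of an array is therefore no separate measurement of how a batch's control or CTGF ovaries differed from those of other batches. What varies is the difference within a batch, of which there are 3 for each gene. Whether the control and CTGF arrays of a gene overlap follows from the signs of these 3 differences and adds nothing to them. With 1 control and 1 CTGF array a batch, whether the effect of CTGF differs between batches cannot be tested.

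Most markers of oocytes and of pregranulosa and granulosa cells were above background in the 6 arrays. Of 14 measured oocyte markers 12 were above background, as were 9 of 11 markers of pregranulosa and granulosa cells, while none of 15 genes of postmeiotic male germ cells (spermatids) was above it (0 of 15). Also above it were 10 of 10 markers of stroma and smooth muscle and 8 of 9 leukocyte markers, but only 3 of 7 endothelial markers. Background was taken as the 95th percentile of the log2 signals of 42 genes of other tissues (lens, retina, pancreas and the like), which was 5.50, a signal of 45.1 on the linear scale. This level was passed by 54.4% of all probe sets, so it is a lenient one. It was also passed by 3 of these 42 genes, which follows from its definition as a percentile of them. The median of all probe sets lay between 5.82 and 5.84 on each array.

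The promoters of Sycp1, Sycp2, Sycp3, Stag3 and Smc1b are shown for their motif letters. These 5 genes shared the sequence of signs (higher, lower and higher in batches 1, 2 and 3) and were far above background. They run from 250 bases before to 50 bases after the start of transcription, on the gene's strand, in RefSeq's GRCr8 assembly of the rat genome. Capitals mark matches to 4 motifs searched on both strands: GCGGGAA of E2F factors, the E-box CACGTG, CNCCTCAG of the meiotic initiators STRA8 and MEIOSIN, and the cAMP response element TGACGTCA. The Sycp1 promoter is at chr2:193145131-193145430 on the minus strand, and the Sycp2 promoter at chr3:185876443-185876742 on the minus strand, that of Sycp3 at chr7:24761226-24761525 on the plus strand, that of Stag3 at chr12:22398158-22398457 on the plus strand, and that of Smc1b at chr7:118122599-118122898 on the minus strand.
Sycp1: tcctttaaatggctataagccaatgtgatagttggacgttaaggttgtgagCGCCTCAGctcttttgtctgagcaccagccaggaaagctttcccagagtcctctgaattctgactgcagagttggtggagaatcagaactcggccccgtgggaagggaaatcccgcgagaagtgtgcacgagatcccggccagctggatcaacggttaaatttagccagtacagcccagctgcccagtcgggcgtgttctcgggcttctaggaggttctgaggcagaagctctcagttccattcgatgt
Sycp2: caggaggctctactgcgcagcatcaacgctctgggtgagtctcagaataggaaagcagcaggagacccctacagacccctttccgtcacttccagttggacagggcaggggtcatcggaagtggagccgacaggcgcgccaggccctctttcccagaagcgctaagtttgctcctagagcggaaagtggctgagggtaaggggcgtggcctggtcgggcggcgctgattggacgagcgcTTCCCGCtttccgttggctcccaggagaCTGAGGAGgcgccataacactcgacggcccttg
Sycp3: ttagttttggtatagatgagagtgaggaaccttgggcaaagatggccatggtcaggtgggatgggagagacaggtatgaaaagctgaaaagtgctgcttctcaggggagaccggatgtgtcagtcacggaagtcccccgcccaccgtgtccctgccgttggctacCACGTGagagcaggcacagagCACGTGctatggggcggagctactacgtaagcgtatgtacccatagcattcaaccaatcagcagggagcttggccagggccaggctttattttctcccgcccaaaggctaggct
Stag3: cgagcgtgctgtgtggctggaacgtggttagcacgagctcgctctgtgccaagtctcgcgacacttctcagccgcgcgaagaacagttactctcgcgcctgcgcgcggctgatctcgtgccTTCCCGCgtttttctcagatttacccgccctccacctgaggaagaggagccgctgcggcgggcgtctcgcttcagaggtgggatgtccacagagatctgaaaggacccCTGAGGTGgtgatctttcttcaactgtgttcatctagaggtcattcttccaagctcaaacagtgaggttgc
Smc1b: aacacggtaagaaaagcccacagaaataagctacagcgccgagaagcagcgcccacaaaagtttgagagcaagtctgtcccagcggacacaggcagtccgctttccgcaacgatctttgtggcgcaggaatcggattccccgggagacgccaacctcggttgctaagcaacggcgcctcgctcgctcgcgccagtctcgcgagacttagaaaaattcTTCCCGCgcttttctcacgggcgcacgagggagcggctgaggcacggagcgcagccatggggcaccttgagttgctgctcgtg

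Among the 9 genes 8 had a promoter in the RefSeq table used, and Msh5 is the other. The E2F letters were found in 4 of the 8 (Sycp2, Spo11, Stag3 and Smc1b), against 4.21% of 33469 promoters of the table. These letters contain CpG, and the 4 promoters were richer in CpG than most, with 20, 16, 24 and 30 against a median of 7 over all promoters, so the shares are not of like promoters. Counted from the start of transcription, the match ended at -5 in Sycp2, at -27 in Smc1b and at -123 in Stag3, and in Spo11 it began at 6. The STRA8 and MEIOSIN letters were found in 3 of the 8 (Sycp1, Sycp2 and Stag3), against 8.86% of all promoters. These 3 promoters held 13, 20 and 24 CpG against the median of 7, so these shares are not of like promoters either. Sycp3 alone among the 8 held the E-box, in 2 copies at -85 and -64, against 6.42% of all promoters with at least 1 copy. The E-box letters contain CpG too. The cAMP response element was found in 0 of the 8 and in 1.83% of all promoters. No matches overlapped. Stag1 and Smc1a, which encode the mitotic counterparts of Stag3 and Smc1b, also held the E2F letters, and Smc1a held an E-box at -169. A match is a description of letters in this window and no evidence that a factor binds there.

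**Figure D1:**
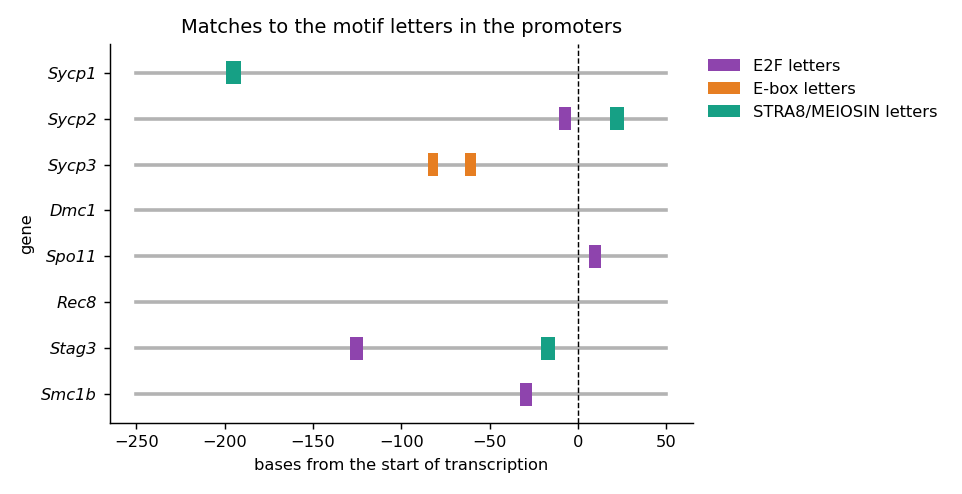
Matches to the motif letters in the 8 promoters, with the distance in bases from the start of transcription on the x axis (dashed line at the start), a grey line for each promoter and coloured boxes for the matches. E2F letters lie in the promoters of Sycp2, Spo11, Stag3 and Smc1b, and the 2 E-box matches in that of Sycp3.

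The synaptonemal complex genes were all far above background. Sycp1 encodes the transverse filament that bridges the paired homologs. Its log2 signal was 9.03, 9.36 and 8.92 in the control arrays of batches 1, 2 and 3, and 9.29, 8.96 and 9.40 in the CTGF arrays. The control array of batch 2 was thus the highest control, the CTGF array of batch 2 the lowest CTGF array, and the groups overlapped. The difference was 0.26, -0.40 and 0.48, with a mean of 0.11 (SE 0.16, 95% interval -0.28 to 0.51, unadjusted p = 0.510 in limma).

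Sycp2 forms the lateral elements, the axes along each homolog to which the filament attaches. It stood at 9.50, 9.80 and 9.44 in the control arrays and at 9.75, 9.45 and 9.81 in the CTGF arrays. The order of the arrays was the same as for Sycp1, with overlap of the groups. The difference was 0.25, -0.35 and 0.37, with a mean of 0.09 (SE 0.14, interval -0.25 to 0.43).

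Sycp3, the partner of Sycp2 in the lateral elements, had log2 signals of 9.32, 9.69 and 9.26 in the control arrays and 9.69, 9.31 and 9.74 in the CTGF arrays. The groups overlapped again, and the arrays of batch 2 stood opposite to those of batches 1 and 3. The difference was 0.37, -0.38 and 0.48. Its mean of 0.16 (SE 0.17) was the largest among the 9 genes, a ratio of 1.11 with a 95% interval of 0.844 to 1.47 (unadjusted p = 0.379 in limma). On the linear scale the signal was 692.8 ± 116 in the control and 772.0 ± 120 in the CTGF arrays (SD, n = 3 each). As batch means were equal, both SDs restate the spread of the 3 differences and are no separate spread within each group.

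**Figure D2:**
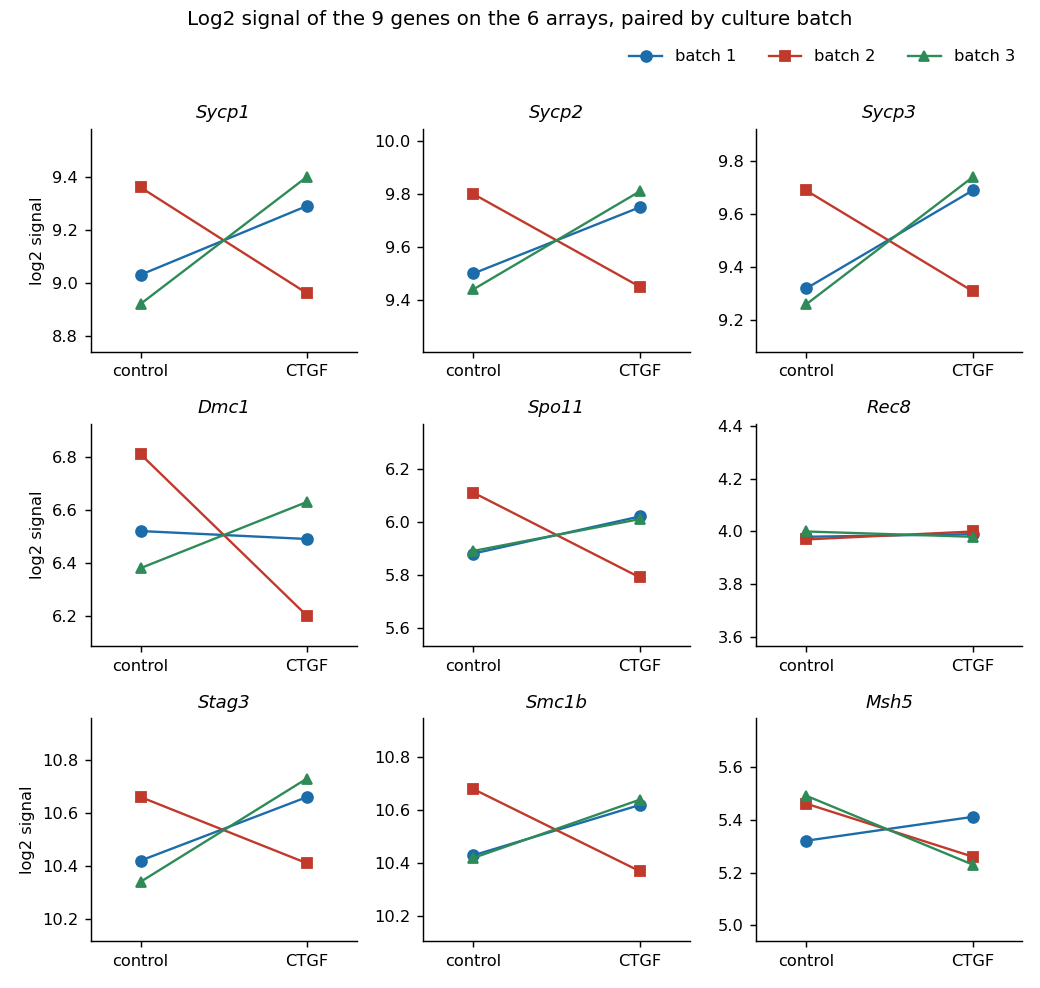
Log2 signal (y axis) of the 9 genes in the control and CTGF arrays, with a line joining the 2 arrays of a culture batch (circles batch 1, squares batch 2, triangles batch 3). Every panel spans the same range of log2 units. The lines of batch 2 run down and those of batches 1 and 3 run up for Sycp1, Sycp2, Sycp3, Spo11, Stag3 and Smc1b, and Rec8 is flat. The lines cross at 1 height because batch means were equal in the deposited values.

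The cohesin genes fell into a group of 2 that followed the complex and 1 at background. Stag3 encodes the meiotic subunit that contacts the ring of cohesin. Its log2 signal was 10.42, 10.66 and 10.34 in the control arrays and 10.66, 10.41 and 10.73 in the CTGF arrays. Controls of batches 1 and 3 were lower than their CTGF arrays, the control of batch 2 was higher, and the groups overlapped. The difference was 0.24, -0.25 and 0.39, with a mean of 0.13 (SE 0.13, interval -0.18 to 0.43, unadjusted p = 0.352 in limma).

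Smc1b encodes the meiotic form of an arm of the ring. It stood at 10.43, 10.68 and 10.42 in the control arrays and at 10.62, 10.37 and 10.64 in the CTGF arrays. The control of batch 2 was the highest and its CTGF array the lowest of all 6, and the groups overlapped. The difference was 0.19, -0.31 and 0.22, with a mean of 0.03 (SE 0.12, interval -0.25 to 0.31).

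Rec8, the meiotic kleisin that closes the ring, had log2 signals between 3.97 and 4 on all 6 arrays. Its mean stood at -1.51 relative to the background level on the log2 scale, so that no difference could be read for this probe set. Its differences of 0.01, 0.03 and -0.02 are those of a probe set at background.

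Of the recombination genes, Spo11 and Dmc1 were above background and Msh5 was not. Spo11 encodes the enzyme that makes the meiotic breaks. It stood at 5.88, 6.11 and 5.89 in the control arrays and at 6.02, 5.79 and 6.01 in the CTGF arrays, 0.46 above background on average. Batch 2 again held the highest control and the lowest CTGF array, and the groups overlapped. The difference was 0.14, -0.32 and 0.12, with a mean of -0.02 (SE 0.11, interval -0.28 to 0.24).

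Dmc1, the meiotic recombinase that carries out strand exchange with the homolog, had log2 signals of 6.52, 6.81 and 6.38 in the control arrays and 6.49, 6.20 and 6.63 in the CTGF arrays. The groups overlapped. The difference was -0.03 in batch 1, -0.61 in batch 2 and 0.25 in batch 3, with a mean of -0.13 (SE 0.16, interval -0.51 to 0.25). In batch 2 it was the lowest of the 9 genes, and 0.293% of all probe sets were as low or lower in that batch. Dmc1 was the member above background that lacked the signs of the other 6, by its batch 1 value close to 0.

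Msh5, which with Msh4 stabilizes recombination intermediates on the way to crossovers, stood at 5.32, 5.46 and 5.49 in the control arrays and at 5.41, 5.26 and 5.23 in the CTGF arrays. Its mean stood at -0.13 relative to the background level. The groups overlapped through batch 1, where the CTGF array was 0.09 higher, while it was 0.20 and 0.26 lower in batches 2 and 3. The mean difference was -0.12 (SE 0.09, interval -0.34 to 0.09, unadjusted p = 0.206 in limma), the lowest p among the 9 genes.

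The test with culture batch as a block called none of the 9 genes. At an unadjusted p under 0.05 there were 0 of the 9, against 3.35% of all probe sets (915 of 27342), of which 397 (1.45%) were higher and 518 (1.89%) lower with CTGF. With the Benjamini-Hochberg method applied to the whole array, the adjusted p was 0.994 for each of the 9, and 0 probe sets in all (0%) were called by limma. The control and CTGF arrays did not overlap for 0 of the 9 genes and for 20.3% of all probe sets. With equal batch means, this count only restates whether the 3 differences share a sign. A two-sided exact sign-flip permutation test over the 3 batches gave p = 0.50 to p = 1.00 for the 9 genes, where the smallest it can give with 3 batches is 0.25. Of the 9 mean differences 6 were above and 3 below 0, with a median of 0.03 beside -0.0033 for all probe sets. The intervals leave room for changes in either direction: for Sycp3 they reach from a ratio of 0.844 to 1.47, and for Dmc1 from 0.702 to 1.19.

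**Figure D3:**
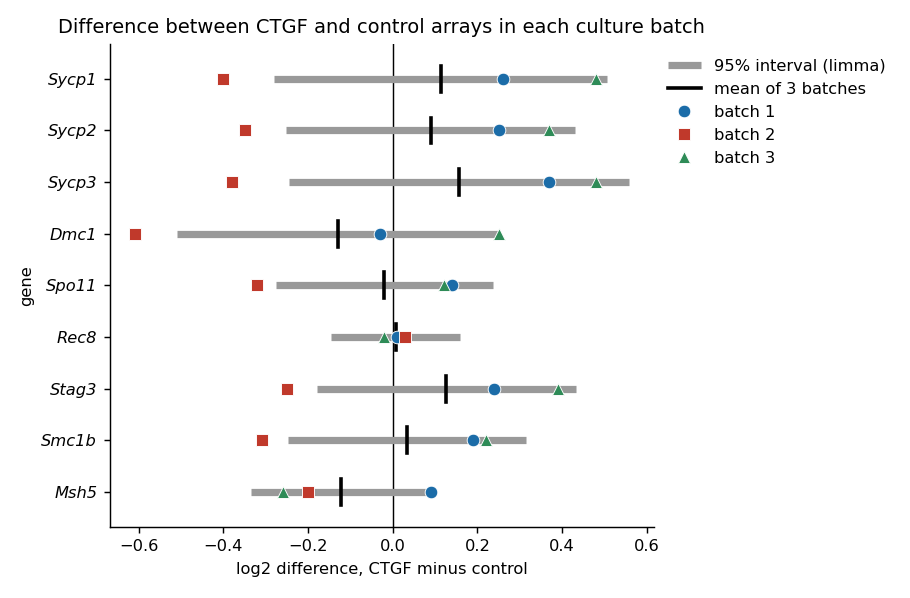
Log2 difference between the CTGF and control array (x axis) of each gene in the 3 culture batches (symbols), with the mean of the batches (black line) and its 95% interval from limma (grey bar). All 9 intervals include 0, and the squares of batch 2 lie left of 0 for 8 of the 9 genes.

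The differences of 7 of the 9 genes varied widely between batches. The SD of the 3 differences was 0.468 for Sycp3, which exceeded that of 98.8% of all probe sets, and 0.458 for Sycp1, which exceeded 98.7%. It was 0.439 for Dmc1, 0.386 for Sycp2, 0.335 for Stag3, 0.298 for Smc1b and 0.26 for Spo11. The median SD was 0.335 over the 9 genes and 0.121 over all probe sets, and it was 0.359 over 10 markers of stroma and smooth muscle. The differences of these 7 genes thus varied more from batch to batch than those of most probe sets, and their standard errors were wide with it. Msh5 (0.187) and Rec8 (0.025), which were below background, had the smallest of the 9. The SD of Msh5 still exceeded that of 75.9% of all probe sets, and that of Rec8 exceeded 3.44%.

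The sign pattern itself, higher in the CTGF array in batches 1 and 3 and lower in batch 2, was noticed after the values were seen and is given as a description with no test. It was shown by 6 of the 9 genes and by 12.0% of all probe sets (10.9% of the 14877 above background). In batch 1 the difference of 8 of the 9 was above 0, in batch 3 that of 7, and in batch 2 that of 8 was below 0. Within batch 2, 1.44% of all probe sets were as low as Sycp1 or lower, 1.73% as low as Sycp3, 2.30% as low as Sycp2 and 6.21% as low as Stag3. In batch 3, 99.4% of all probe sets were at or below the differences of Sycp1 and Sycp3, 0.48 each. The 9 genes were read from the same 6 RNA samples and are known from the same germ cells, so they are not independent observations of a batch.

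**Figure D4:**
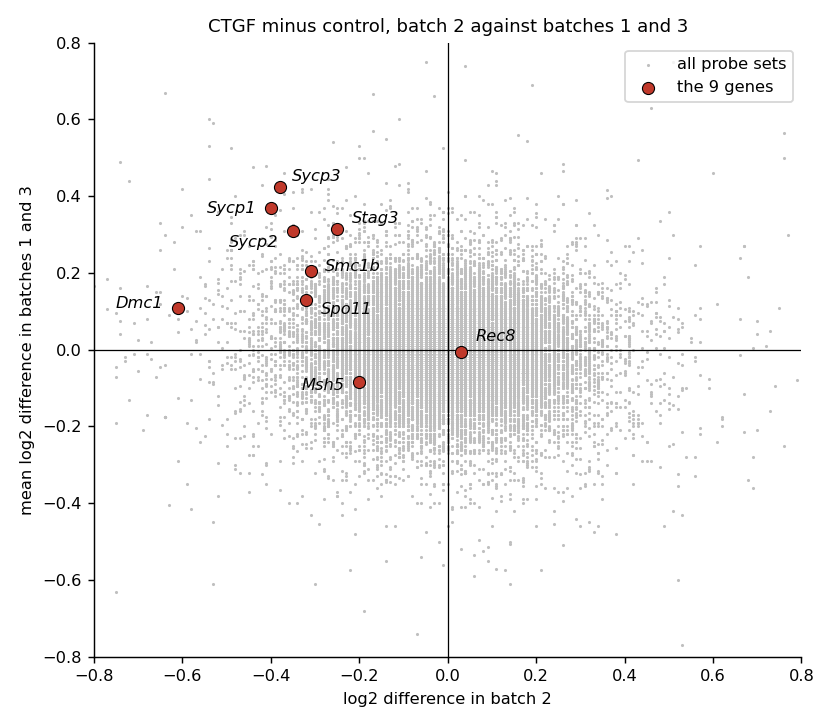
Log2 difference between CTGF and control in batch 2 (x axis) against the mean difference in batches 1 and 3 (y axis), with all probe sets in grey and the 9 genes in red. The plot shows 27304 probe sets, and 38 lie outside its limits of 0.8. Sycp1, Sycp2, Sycp3, Stag3, Smc1b, Spo11 and Dmc1 lie in the upper left, and Rec8 lies near the centre.

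The result depended on which batches were averaged, and on batch 2 and batch 3 in opposite ways. Without batch 2, the mean difference of Sycp3 was 0.425 (unadjusted p = 0.0109 in limma) and that of Sycp1 was 0.37 (unadjusted p = 0.0300 in limma). That of Sycp2 was 0.31 (unadjusted p = 0.0259 in limma) and that of Stag3 was 0.315 (unadjusted p = 0.0294 in limma). These 4 of the 9 had an unadjusted p under 0.05, against 2.53% of all probe sets (691) in that fit, and their adjusted p in limma was 0.988. Smc1b stood at 0.205 (unadjusted p = 0.0508 in limma). Without the arrays of batch 1, 1 of the 9 (Msh5, -0.23, unadjusted p = 0.0393 in limma, below background) had an unadjusted p under 0.05, against 2.36% of all probe sets (645). Without those of batch 3 it was 0 of the 9, against 1244 of 27342 probe sets. In that fit the mean differences of Sycp1 (-0.07), Sycp2 (-0.05), Sycp3 (-0.005), Stag3 (-0.005) and Smc1b (-0.06) turned below 0, and the median over the 9 was -0.055. The labels give no reason to set any batch aside, and the means over 3 batches stand as the result.

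Other genes of meiosis were read from 7 lists with 81 genes, of which 46 were measured and 42 were above background. Of these 46, 33 had a mean difference above 0 and 11 below, with a median of 0.04, and 0 had an unadjusted p under 0.05. The sign pattern of the 6 genes was shown by 21 of the 46 (45.7%). Among other parts of the synaptonemal complex and chromosome axis it was shown by 4 of 5: Syce1, a central element protein, Hormad1 and Hormad2, which mark unpaired axes, and Fkbp6. Hormad1 came close to Sycp3, with differences of 0.41, -0.38 and 0.32, and Hormad2 had 0.21, -0.15 and 0.25. Trip13, the ATPase that removes the Hormad proteins from paired axes, was at 0.14, 0.12 and -0.07.

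Of 8 measured genes of crossover formation 5 showed the pattern (Msh4, Mlh3, Hfm1, Ccnb1ip1 and Pms2). Msh4, the partner of Msh5, had differences of 0.10, -0.22 and 0.32, and Ccnb1ip1, a ligase that limits crossover sites, had 0.09, -0.19 and 0.29. Mus81 and Eme1, nuclease subunits that also act in mitotic cells, were at 0.20, 0.04 and -0.04 and at 0.20, -0.03 and -0.04. The 13 measured genes of strand exchange and repair were mixed, with 6 in the pattern. Brca2, which loads recombinases, had 0.03, -0.31 and 0.05, Tex15 had 0.10, -0.04 and 0.17, Hells, a chromatin remodeller, had 0.48, -0.08 and 0.06, and Palb2, the partner of Brca2, had 0.26, 0.22 and -0.04.

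Of 7 genes in the list named for meiotic entry 3 were measured. The other 4, the initiators Stra8 and Meiosin with Meioc and Ythdc2, were not analysed here, so the 3 do not describe entry itself. Dazl is also among the oocyte markers. The 3 showed the pattern: Mael, a factor of transposon silencing, at 0.20, -0.18 and 0.36, Dazl, an RNA-binding protein of germ cells, at 0.12, -0.23 and 0.19, and Tex101 at 0.17, -0.41 and 0.05. Of 5 measured genes of break formation 2 did so, Prdm9, which sets the sites of breaks and was below background, at 0.25, -0.09 and 0.23, and Hormad1, which is also in the axis list. Mei4, below background, and Mei1 were at -0.10, -0.16 and 0.06 and at 0.13, -0.33 and -0.06. Of 5 measured genes of telomere attachment 2 did so, Spdya at 0.29, -0.19 and 0.37 and Terb2 at 0.12, -0.10 and 0.16. Majin, below background, and Sun1, which tie telomeres to the nuclear envelope, were above 0 in batch 2, both at 0.08.

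Cohesin and its regulators that also act in mitosis did not show the pattern. It was absent from all 8 that were measured, and their median differences were 0.01, 0.035 and -0.01. Stag1, the mitotic counterpart of Stag3, was at 0.03, -0.02 and -0.07, Smc1a, that of Smc1b, at -0.01, -0.02 and -0.13, and Rad21, that of Rec8, at -0.03, 0.06 and 0.05. Pds5a and Esco1, regulators of cohesin, were at 0.09, 0.05 and 0.13 and at 0.17, 0.09 and 0. Stag3 minus Stag1 was 0.21, -0.23 and 0.46 (mean 0.15, SD 0.349, n = 3, two-sided exact sign-flip permutation p = 0.75), and Smc1b minus Smc1a was 0.20, -0.29 and 0.35 (mean 0.09, SD 0.335, n = 3, exact permutation p = 0.75). Neither mean was larger than the spread between batches.

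Since whole ovaries were measured, fewer oocytes and less RNA per oocyte cannot be told apart. Of 14 measured oocyte markers 5 showed the sign pattern (Ddx4, Dazl, Sohlh2, Nlrp5 and H1f8, the last below background), and the median differences of the 14 were 0.08, 0.095 and 0.055. Ddx4, a germ cell helicase that was named after its values were seen, was at 0.04, -0.26 and 0.23. Kit, the receptor of Kit ligand on oocytes, had differences above 0 in every batch (0.12, 0.15 and 0.31, unadjusted p = 0.033 in limma, adjusted p = 0.994), and Lhx8, a transcription factor of oocytes, was at 0.04, 0.08 and 0.34.

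The summed linear signal of the 9 genes was 4842, 5874 and 4662 in the control arrays and 5718, 4699 and 5939 in the CTGF arrays. That of the 14 oocyte markers was 6269, 6396 and 6137 in the control and 6489, 6384 and 6652 in the CTGF arrays. The sum of the 9 genes was thus higher in the CTGF array in batches 1 and 3 and lower in batch 2. In batch 2 the sum of the oocyte markers was almost equal in the control and CTGF arrays (6396 and 6384). Their median difference in that batch was above 0 (0.095). The part of the oocyte share in the result was not tested. The 3 red blood cell markers summed to 759.3, 931.5 and 809.5 in the control and 904.9, 737.6 and 848.3 in the CTGF arrays. The sum was higher in the CTGF array in batches 1 and 3 and lower in batch 2, as for the 9 genes. Hbb, with differences of 0.27, -0.35 and 0.07, was the only marker of the 3 above background, and Alas2, below it, also had the pattern. Their part in the result was not tested.

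For the other marker lists, those of red blood cells aside, the median difference was farthest from 0 in batch 1 or 3. Of 11 measured pregranulosa and granulosa markers 0 showed the pattern, with median differences of -0.18, 0.11 and -0.02 that had the opposite signs in batches 1 and 2. The 10 stromal and smooth muscle markers (0 in the pattern) were lowest in batch 3, with a median of -0.465 and Pdgfra, a receptor of stromal cells, at -1.03. The 7 endothelial markers (0 in the pattern) had a median of -0.36 in batch 3. Their summed signals lay between 6172 and 7672 in the control and between 5480 and 6776 in the CTGF arrays for the stromal list, and between 533.2 and 596.7 and between 490.1 and 542.5 for the endothelial list. The 9 leukocyte markers (1 in the pattern) summed to 748.9 to 824.0 in the control and 718.7 to 790.5 in the CTGF arrays, with Tyrobp at -0.21 and Cd3e, below background, at -0.16 as the 2 at an unadjusted p under 0.05. The 8 markers of surface epithelium and mesonephros (0 in the pattern) summed to 3887 to 4053 and 3890 to 4048. As batch means were equal, the ranges of the control and CTGF sums are no separate spreads. Of the genes of other tissues that set the background 6 of 42 showed the pattern (14.3%) and 1 (Scgb1a1, -0.24) had an unadjusted p under 0.05, and of the 15 spermatid genes 0 showed it. The part of these lists in the values of the 9 genes was not tested.

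**Figure D5:**
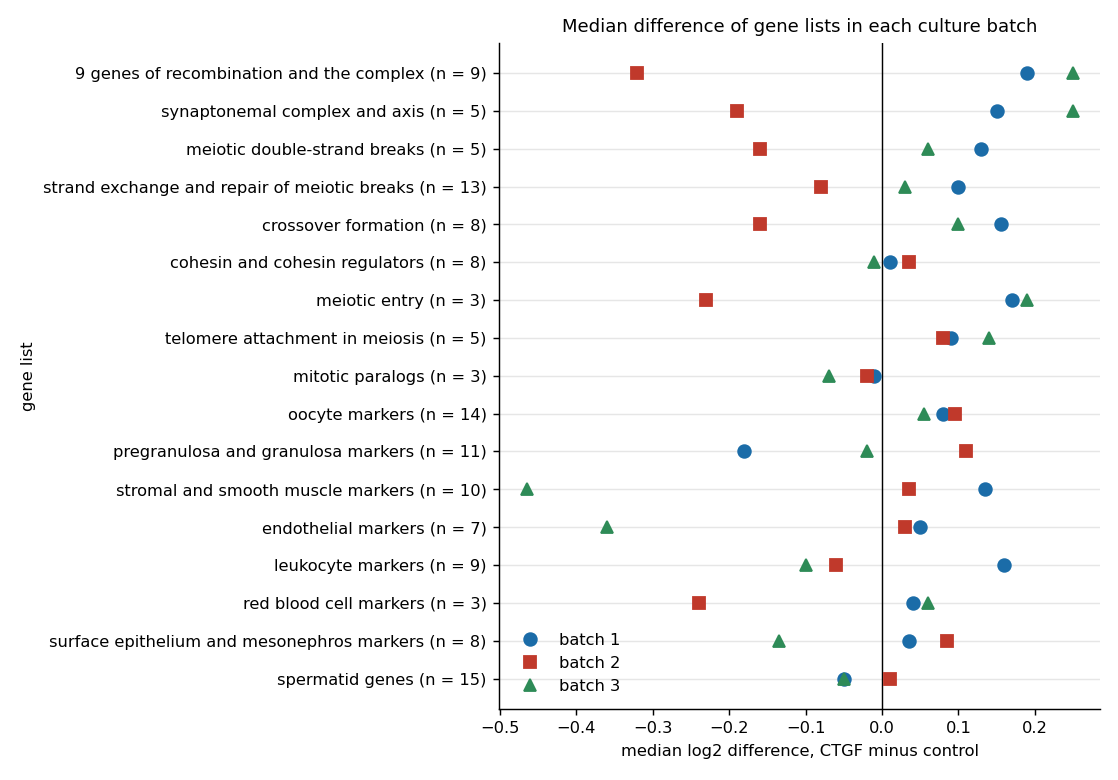
Median log2 difference between CTGF and control (x axis) of each gene list in the 3 culture batches (symbols), with the number of measured genes in brackets. The 9 genes lie left of 0 in batch 2 and right of 0 in batches 1 and 3. So do the other lists of meiosis, except cohesin and telomere attachment, and the red blood cell markers. Mitotic paralogs lie within 0.07 of 0 and stromal markers are lowest in batch 3.

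The genes whose differences were closest to those of the 9 were searched for among 8655 genes above background. The measure was the mean absolute distance of the 3 differences from the medians of the 9 genes, and its median over the 8655 genes was 0.267. The closest were Asz1 (0.033), a protein of piRNA biogenesis in germ cells, Fam227b (0.037) and Pnldc1 (0.037), the nuclease that trims piRNAs. The differences of Asz1 were 0.12, -0.34 and 0.24, those of Fam227b 0.17, -0.25 and 0.23 and those of Pnldc1 0.19, -0.21 and 0.25. Among the 9 themselves Smc1b lay closest to the medians (0.013) and Rec8 farthest (0.267). With 3 differences a gene, this likeness is a description.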

How the data were processed

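Ovary RNA was measured on 6 arrays, 3 control and 3 CTGF, grouped by their labels. Arrays with the same replicate number were taken as a batch of organ culture date. The authors summarized probes to log2 values with RMA in Partek (submitters' processing notes), and adjusted for GC content according to the methods. The log2 values as deposited had batch means equal to within 0.005, as described above. Across probe sets, the deviations from the group means of 2 arrays of a batch had correlations of -0.9988, -0.9988 and -0.9991, which follows from that step. The pairing rests on the labelled replicate number, and the methods block for organ culture date. All 6 columns were assigned to a sample.

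Differences and intervals were computed with limma 3.58.1 under R 4.3.3 (lmFit, then eBayes, group and batch, no filter), with Benjamini-Hochberg adjustment over 27342 probe sets, 2 residual and 4.22 prior degrees of freedom. The procedure was tested on simulated data. The number of arrays limits the precision. The p-values rest on how the difference within a batch varied between the 3 batches, with 1 pool of ovaries a group in each.

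Names come from the platform annotation: 15097 probe sets had 1 symbol, 323 several and 11922 none, and 15067 of the first matched RefSeq genes of GRCr8. A gene of several probe sets was read from the brightest. The text names all 9 genes, up to 4 genes of lowest p in each of 7 meiosis lists, up to 3 of each marker list, measured paralogs and the 3 most alike genes. Other genes are named where a count of 5 or fewer needed it, after their values were seen. The members and lists were chosen with earlier results of these data known. Alternatives were no batch block, quantile normalization, median centring, a filter on low signal, an intensity trend, a robust prior, the methods' 2-way test, other background levels and leaving out each pair. Promoters are RefSeq sequences.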

Additional observations from a re-analysis of the deposited data

How the results depend on the processing

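Leaving out 1 batch at a time moved every member's mean difference over a range: -0.07 to 0.37 for Sycp1, -0.05 to 0.31 for Sycp2, -0.005 to 0.425 for Sycp3, -0.32 to 0.11 for Dmc1, -0.10 to 0.13 for Spo11, -0.005 to 0.02 for Rec8, -0.005 to 0.315 for Stag3, -0.06 to 0.205 for Smc1b and -0.23 to -0.055 for Msh5. The sign turned without batch 3 for Sycp1 (-0.07), Sycp2 (-0.05), Sycp3 (-0.005), Stag3 (-0.005) and Smc1b (-0.06), without batch 2 for Dmc1 (0.11), Spo11 (0.13) and Rec8 (-0.005), and without batch 1 for Smc1b (-0.045). The number of the 9 genes at an unadjusted p under 0.05 ranged from 0 to 4 and the median difference from -0.055 to 0.205. These 9 of 88 recomputed differences turned sign and the other 79 did not. Without the replicate block for batch, 4415 probe sets in place of 915 passed an unadjusted p of 0.05, and 0 of the 9 genes did. That fit counts residual degrees of freedom that the removal of batch differences had used up. With a filter on low signal 420 of 14877 probe sets did. No probe set was called after adjustment under any alternative. The sign pattern, an alternative added after the data were seen, was shown by 6 genes under quantile normalization and under median centring. With spermatid genes as the background 8 of the 9 were above it, and 7 with the median of all probe sets. A change in Rec8 or Msh5 could not be read at their signal, and with 3 batches only large changes could be called.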
